A study of Mus musculus with 24 samples.

Results

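The comparison was between 2 circadian times in the inguinal pad, a fat depot under the skin, of mice whose adipocytes lack the clock gene Bmal1: the 3 knockout arrays at CT12 against the 3 knockout arrays at CT6, 6 of the 24 arrays of the study. The arrays were chosen by their titles. Knockout mice carried aP2-Cre+/- and Bmal1fx/fx, and control mice carried Bmal1fx/fx with no Cre, so an effect of Cre itself cannot be told apart from the deletion. The aP2 promoter drives the Cre, and whether other cells of the pad recombined was not measured here. Both genotypes were crossed to C57BL/6J for at least 6 generations and ate regular chow. Every group was kept in constant darkness from 36 h before collection began and was fasted for 24 h before death. CT0 is the start of the subjective day, so CT6 is its middle and CT12 its end. The control arrays at the same times, 3 for each time, served as the comparison for genotype. The sources used here give neither the age nor the sex of the animals. The labels number the arrays of a group as biological replicates, and no other statement on separate animals was used.

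BMAL1, whose gene symbol is Arntl, pairs with CLOCK and activates genes through E-box sequences. Among these targets are the period and cryptochrome repressors, which close the main feedback loop, and the nuclear receptors REV-ERB alpha (Nr1d1) and REV-ERB beta (Nr1d2), which repress Arntl in a second loop. The PAR bZIP factors Dbp, Tef and Hlf carry the rhythm onward through D-box sequences. Fat also receives time signals from outside the tissue, such as glucocorticoids, feeding and body temperature, and holds vessels and connective tissue beside its adipocytes. In such a bulk sample fewer cells of a type and less RNA per cell cannot be told apart.

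The values are log2 expression levels of probe sets, and a step is the mean at CT12 minus the mean at CT6 on that scale, so a step of 1 is a doubling. Array medians over the 19938 genes tested lay between 6.46 and 6.56 on all 24 arrays. Adipocyte markers were high on all 6 arrays: the mean of 11 markers lay between 10.27 and 10.46 at CT6 and between 10.34 and 10.54 at CT12, and Adipoq, the adipokine adiponectin, lay between 11.86 and 12.08. The probe set of Arntl read 7.08, 6.90 and 6.88 at CT6 and 6.46, 6.89 and 6.87 at CT12 in the knockout. The sources used here do not say which exons that probe set covers, so it does not check the deletion.

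Some arrays stood apart from the others of their group. Knockout CT6 replicate 2 carried liver transcripts. The mean of 15 such genes was 8.0 on it and 4.99 and 5.06 on the other two CT6 arrays, and Alb, serum albumin, read 11.15 against 6.30 and 7.55. Knockout CT12 replicate 2 carried genes of lipid-associated macrophages, with a mean over 11 genes of 8.73 against 7.11 and 7.27, and Mmp12, a macrophage elastase, at 10.19 against 5.86 and 7.65. Knockout CT12 replicate 1 lay toward the control arrays at genes that separate the genotypes. Its Kcnj15, a potassium channel, read 8.23, within the 7.56 to 8.33 of the 6 control arrays at CT6 and CT12, while the other 5 knockout arrays lay between 6.67 and 7.31. Trpv2, a cation channel, read 6.35 on it, against 7.17 to 7.84 on those 5 arrays and 6.25 to 6.68 on the controls. Control CT12 replicate 1, on which every control step and every difference of steps rests in part, had 35 genes at least 1 log2 unit above both other arrays of its group, beside 20 for knockout CT12 replicate 2 and 47 for knockout CT6 replicate 2. It lay toward the knockout at some genes: Zim1, an imprinted zinc finger gene, read 9.21 on it and 7.16 and 6.90 on the other control CT12 arrays, against 9.41 to 10.39 on the 5 knockout arrays. At Kcnj15 (7.78) and Trpv2 (6.62) it lay with the controls. These lists and genes were chosen after their values were seen. The CT12 arrays numbered 1 and the CT18 arrays numbered 3, of knockout and control alike, are the 4 arrays that earlier results had placed toward the other genotype. The mean of 5 REV-ERB repressed genes was 6.99 on knockout CT12 replicate 1, against 7.30 and 7.32. On control CT12 replicate 1 it was 7.31, against 6.73 and 6.82. The clock output repressors did not mirror this, with knockout replicate 1 at 6.36 between 6.16 and 6.52. Whether samples or labels were exchanged was not tested. The differences of steps printed for genes below leave out at most 1 array. The value without an array is given where leaving it out turned the sign of a knockout step or median of at least 0.1, or made it over 1.5 times smaller.

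**Figure D1:**
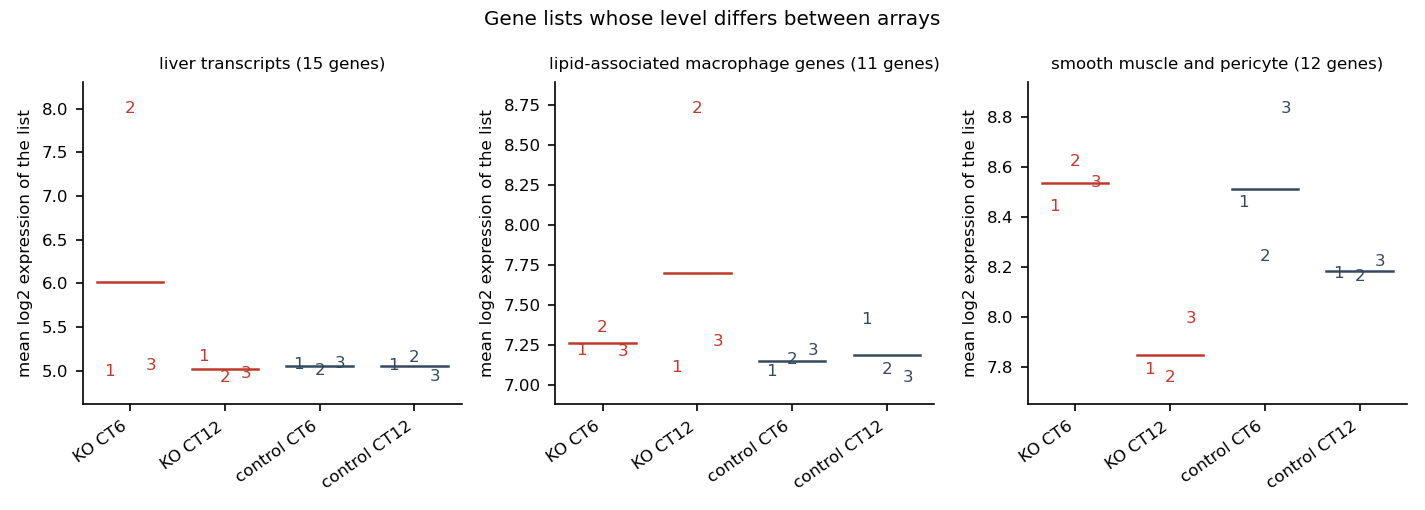
Mean log2 expression of 3 gene lists on each knockout and control array at CT6 and CT12, where each digit is 1 array with its replicate number and each line is the group mean. Knockout CT6 replicate 2 stands at 8.0 for the liver transcripts, knockout CT12 replicate 2 at 8.73 for the lipid-associated macrophage genes, and all 3 knockout CT12 arrays lie below all 3 knockout CT6 arrays for the smooth muscle list.

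No gene passed the threshold for the step in knockout fat. With limma and Benjamini-Hochberg adjustment over 19938 genes, 0 genes (0%) had an adjusted p below 0.05, and the smallest adjusted p was 0.601. At an unadjusted p below 0.05 there were 1006 genes (5.05%), 529 higher at CT12 (2.65%) and 477 lower (2.39%). When arrays were centred on their medians the split was 707 higher and 347 lower. The groups did not overlap for 1108 genes higher on every CT12 array (5.56%) and for 1072 genes lower on every CT12 array (5.38%). The median size of a step was 0.0740, beside a median standard error of 0.106. A step above 0 was found for 49.4% of genes. Steps above 1 were seen for 3 genes and steps below -1 for 15. Of those above 1, Mmp12 (1.74) and Atp6v0d2 (1.25), a proton pump subunit of such macrophages, had 0.59 and 0.03 without CT12 replicate 2, and the remaining gene was Fkbp5. Among those below -1, the liver genes Fabp1 (-1.55), Apoa2 (-1.44) and Alb (-1.34) had 0.18, 0.02 and 0.07 without CT6 replicate 2. These liver and macrophage genes were named with their values in view. The control fat also gave 0 called genes (0%) for the same step, with 948 (4.75%) at an unadjusted p below 0.05. The difference of the steps, knockout minus control, gave 0 (0%) and 535 (2.68%). The steps below are therefore values with errors, and none passed the test over all genes unless another fit is named.

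Actg2 and Cnn1, genes of the smooth muscle contractile apparatus, had the lowest steps of all genes tested. Of the fits run, they passed the test only where the fit was kept to the times or arrays of the step. With the 6 knockout arrays alone limma called 3 genes, all lower at CT12: Cnn1 (adjusted p = 0.00544), Actg2 (0.0189) and Myl9 (0.0320). With the 12 arrays of both genotypes at CT6 and CT12 it called Cnn1 and Myl9 (0.0323 each). In the fit of all 24 arrays the adjusted p was 0.875 for all 3. That fit also takes its spread from the CT0 and CT18 arrays. Knockout CT0 had 95 genes with an SD over 1, against 28 for knockout CT6 and 7 for knockout CT12. Knockout CT0 replicate 2 had the lowest limma array weight of all arrays (0.253), and no fit left out that array alone. Myl9 was picked with its values in view, outside the naming rule.

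Smooth muscle surrounds the arteries and veins of the pad, but which cells gave the contractile transcripts was not measured. Actg2, gamma smooth muscle actin, read 9.23, 10.02 and 9.93 at CT6 and 7.78, 7.54 and 7.93 at CT12 in knockout fat. Every CT12 array lay more than 1 log2 unit below every CT6 array. The step was -1.98 ± 0.53 (SE), the lowest of all genes tested, which makes CT6 3.94 times CT12. Cnn1, the actin-binding calponin, read 9.32, 9.59 and 9.56 at CT6 and 7.80, 7.71 and 8.13 at CT12. Here too every CT12 array lay more than 1 unit below every CT6 array, with a step of -1.61 ± 0.43 and a ratio of CT6 to CT12 of 3.05. Myh11, the smooth muscle myosin heavy chain, read 9.97, 10.25 and 9.49 at CT6 and 8.72, 8.65 and 8.96 at CT12. There was no overlap, and the step was -1.13 ± 0.39. Myl9, a myosin regulatory light chain, read 10.10, 10.38 and 10.29 at CT6 and 9.05, 8.95 and 9.37 at CT12, a step of -1.14 ± 0.35, again with no overlap. Smtn, smoothelin of contractile muscle, had a step of -0.49 ± 0.18, from 7.88 to 7.99 at CT6 and from 7.41 to 7.51 at CT12.

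Among all 12 smooth muscle and pericyte markers, 0 passed the threshold over all genes, 11 had a step below 0, 6 had an unadjusted p below 0.05, all lower, and 7 did not overlap. The median step was -0.48, beside -0.00174 over all genes. Of all genes, 2.39% were lower at an unadjusted p below 0.05 and 5.38% were lower without overlap. The list mean per array was 8.44, 8.62 and 8.54 at CT6 and 7.79, 7.76 and 7.99 at CT12. Tagln (-0.87 ± 0.34) and Des (-0.70 ± 0.29), the contractile protein transgelin and the filament protein desmin, were among the non-overlapping members. Acta2, alpha smooth muscle actin, was not: it read 10.96, 11.06 and 11.76 at CT6 and 10.41, 11.09 and 10.85 at CT12, a step of -0.48 that was -0.23 without CT6 replicate 3 and -0.29 without CT12 replicate 1. The pericyte markers had smaller steps, with Rgs5 at -0.15, Notch3 at -0.17 and Cspg4 at 0.00 (SE 0.19, 0.09 and 0.08). As single arrays were left out the step of Rgs5 ran from -0.41 to 0.04 and that of Notch3 from -0.26 to -0.11. Tagln, Des, Acta2, Rgs5, Notch3 and Cspg4 were chosen after their values were seen.

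CT12 was the low point of the list in knockout fat. Its mean was 8.39 to 9.11 on the CT0 arrays and 8.10 to 8.35 on the CT18 arrays, both above the highest CT12 array at 7.99. Leaving out any 1 of the 6 arrays kept the median step between -0.55 and -0.43. Without CT12 replicate 1 the step of Actg2 was -2.0 and that of Cnn1 -1.57. In control fat the list mean was 8.46, 8.24 and 8.84 at CT6 and 8.17, 8.16 and 8.22 at CT12, with a median step of -0.24. The steps there were -0.97 for Actg2, -0.77 for Cnn1 and -0.77 for Myh11, and -0.62, -0.48 and -0.50 without control CT6 replicate 3, when the list median was -0.13. The steps of the genotypes differed by -1.01 for Actg2 (95% interval -2.57 to 0.55) and -0.84 for Cnn1 (-2.09 to 0.41), with limma adjusted p = 0.999 for both. Without control CT6 replicate 2 the differences were -0.63 and -0.54. The intervals include 0 and also include a much deeper step in the knockout.

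**Figure D2:**
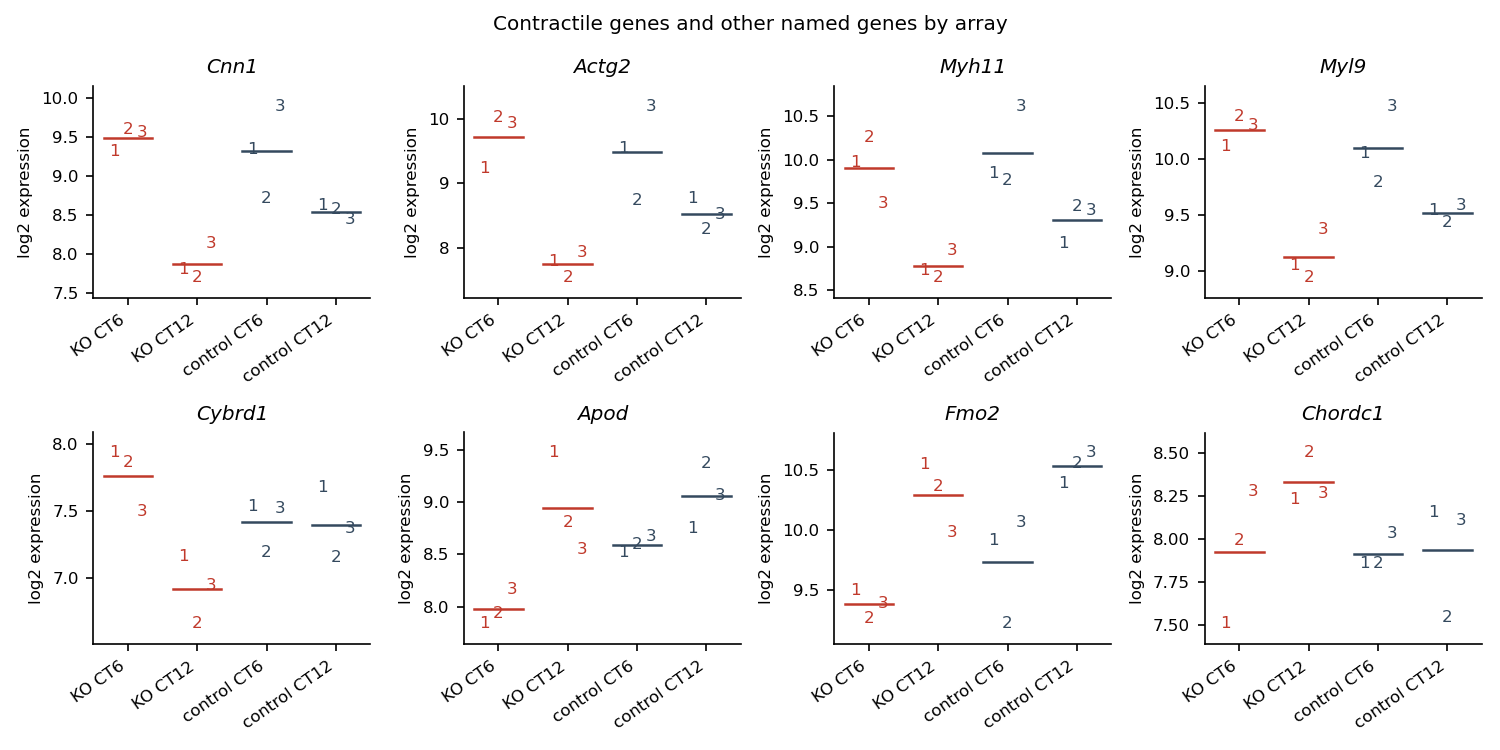
Log2 expression of 4 contractile genes and 4 other named genes on each array, where digits are replicate numbers and lines are group means. In knockout fat all 3 CT12 arrays lie below all 3 CT6 arrays for Cnn1, Actg2, Myh11, Myl9 and Cybrd1, and above them for Apod and Fmo2, while Chordc1 has CT6 replicate 3 level with the lower CT12 arrays. The vertical axes do not start at 0.

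Lists of stromal and mesothelial markers also had medians below 0 in knockout fat, and their part in the contractile steps was not tested. Where the mesothelial transcripts in these samples came from was not measured. All 8 mesothelium markers had a step below 0, with a median of -0.45 (control -0.12, or -0.01 without control CT12 replicate 1), and 4 had an unadjusted p below 0.05. Over all genes 2.39% were lower at that p. Lrrn4, a mesothelial membrane protein, read 7.66, 7.40 and 7.27 at CT6 and 6.89, 6.95 and 6.91 at CT12, a step of -0.53 ± 0.16. Krt19, a keratin of such cells, had -0.57 ± 0.21 with overlapping groups, and -0.37 without CT12 replicate 2. Upk1b and Upk3b, uroplakins of the same cells, had -0.51 ± 0.21 and -0.50 ± 0.23, the latter -0.33 without CT6 replicate 1. The list median ran from -0.58 to -0.28 as single knockout arrays were left out, and was nearest 0 without CT6 replicate 1.

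Of 22 collagen and matrix genes, 21 had a step below 0, with a median of -0.24 in knockout fat and 0.05 in control fat (-0.04 without control CT12 replicate 1), and 5 had an unadjusted p below 0.05. These 5 were lower at CT12, as were 2.39% of all genes at that p. Timp1, an inhibitor of matrix proteases, read 5.49, 5.44 and 5.14 at CT6 and 5.04, 4.81 and 5.08 at CT12, and its mean over all arrays was below 6.5. The groups did not overlap, the step was -0.38 ± 0.12, and it differed from the control step by -0.35 (95% interval -0.69 to -0.01, limma adjusted p = 0.999), or by -0.23 without control CT12 replicate 1. Col1a1 and Col1a2, the chains of type I collagen, had steps of -0.32 ± 0.13 and -0.34 ± 0.14. CT12 replicate 3 stood apart here: the list mean was 8.08 and 8.07 on CT12 replicates 1 and 2, 8.40 on replicate 3 and 8.40 on each CT6 array. Of 12 endothelial markers 11 had a step below 0 (median -0.18, control -0.10), and of 11 progenitor and fibroblast markers 9 (median -0.18, control -0.02). Pecam1, an adhesion molecule of endothelium, read 9.10, 9.12 and 9.35 at CT6 and 8.85, 8.80 and 9.06 at CT12, a step of -0.29 ± 0.13 beside -0.32 in control fat. The endothelial median was -0.07 without CT6 replicate 3, -0.08 without CT12 replicate 2 and -0.28 without CT12 replicate 3. The progenitor and fibroblast median was -0.10 without CT6 replicate 1 and -0.28 without CT6 replicate 3. The median of 11 adipocyte markers was 0.03. That of 13 macrophage markers was 0.09, but -0.07 without CT12 replicate 2, the array with lipid-associated macrophage genes, and -0.01 without CT6 replicate 3.

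**Figure D3:**
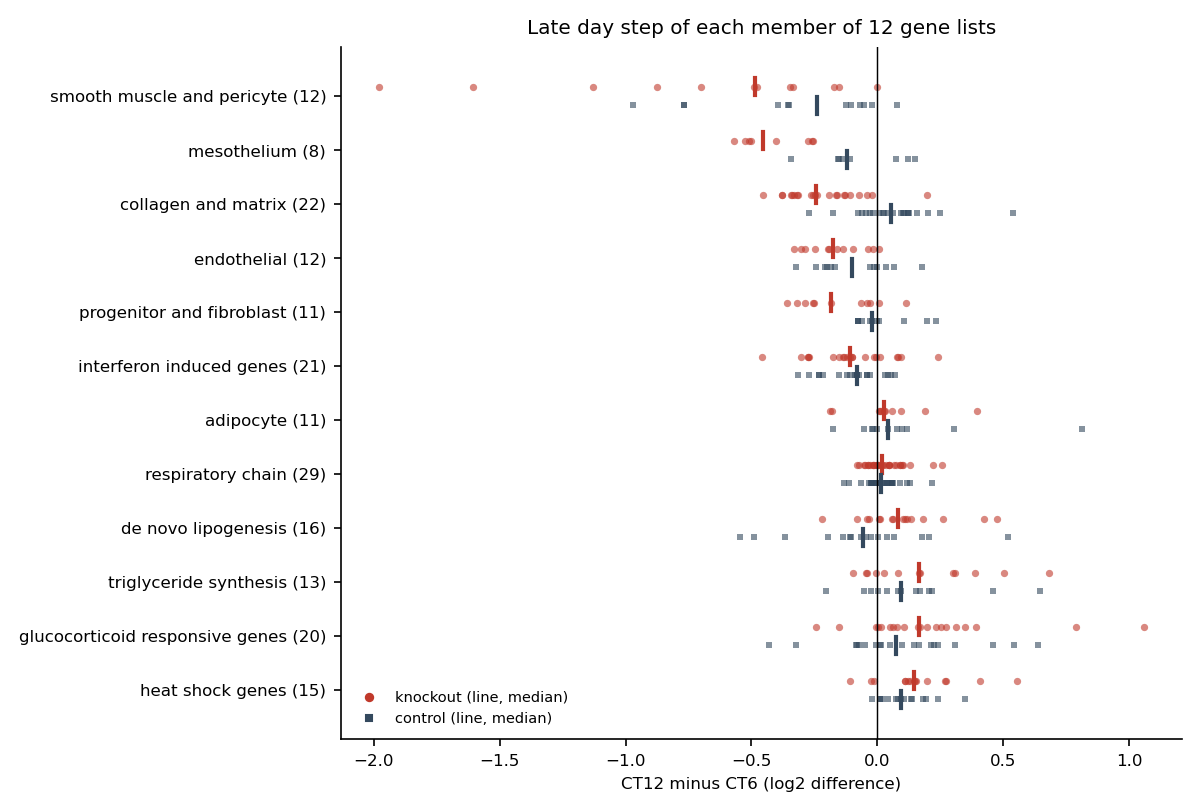
Step from CT6 to CT12 (log2 difference) of each member of 12 gene lists, with the number of members in brackets, circles for knockout, squares for control and a line at each median. The knockout medians lie at -0.48 for smooth muscle and pericyte, -0.45 for mesothelium and -0.24 for collagen and matrix, and at 0.14 for the heat shock genes and 0.16 for the glucocorticoid responsive genes.

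The clock genes were described by role, beginning with the nuclear receptors. Nr1d1 read 9.29, 9.30 and 9.18 at CT6 and 8.67, 8.36 and 8.43 at CT12 in knockout fat. All CT12 arrays were lower, with a step of -0.77 ± 0.16, a ratio of CT6 to CT12 of 1.71 and limma adjusted p = 0.601 (0.0624 to 1 over 25 alternative fits). Control fat read 9.96, 9.79 and 9.95 at CT6 and 8.69, 9.19 and 8.98 at CT12, a step of -0.95 ± 0.16, and the steps differed by 0.18 (95% interval -0.29 to 0.64). In the knockout, CT6 was the highest of the 4 times, since the CT0 arrays lay between 7.47 and 8.28 and the CT18 arrays between 7.07 and 7.11. Nr1d2 did not share this step: it read 8.75, 8.65 and 8.82 at CT6 and 9.10, 8.77 and 8.48 at CT12, a step of 0.04 ± 0.17, and -0.12 without CT12 replicate 1. Rora and Rorb, receptors that compete with the REV-ERBs at shared sites, had steps of 0.14 ± 0.13 and 0.11 ± 0.12, the latter 0.07 without CT12 replicate 1. Their groups did not overlap, and Rorb was dim, with a mean level below 5 over all arrays.

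Period genes encode the repressors that accumulate late in the day. Per2 read 6.96, 7.07 and 7.14 at CT6 and 7.38, 7.56 and 7.33 at CT12. Every CT12 array was higher, with a step of 0.37 ± 0.10 beside 0.33 ± 0.10 in control fat, and the steps differed by 0.03 (95% interval -0.27 to 0.34). Per3 read 7.16, 7.45 and 7.22 at CT6 and 8.19, 7.65 and 7.54 at CT12. The groups did not overlap and the step was 0.52 ± 0.16, but CT12 replicate 1 was the highest, and without it the step was 0.32. The control step of Per3 was 0.46 ± 0.16. Per1 had a step of 0.00 ± 0.14. For Per2 and Per3 the limma adjusted p was 0.875.

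The Per3 promoter is shown because D-box sequences, the sites of the PAR bZIP factors, stand in it. It comes from RefSeq on GRCm38.p6 and is printed 5′ to 3′ on the minus strand of chr4:151044616-151044915, with 250 bases before the start site and 50 after it. Capitals mark the D-box letters TTATGTAA, found here at positions -205 and -158 from the start site.
Per3: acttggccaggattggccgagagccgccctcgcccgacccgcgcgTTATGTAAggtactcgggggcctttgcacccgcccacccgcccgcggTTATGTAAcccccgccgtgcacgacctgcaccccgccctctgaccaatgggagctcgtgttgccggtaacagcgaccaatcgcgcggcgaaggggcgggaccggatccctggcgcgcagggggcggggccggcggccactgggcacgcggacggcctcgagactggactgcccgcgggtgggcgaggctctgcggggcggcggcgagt
On either strand these letters occur in 0.938% of 32851 promoters of the same length and in those of 2 of the 21 clock genes with a listed promoter, Per3 and Timeless. The E-box letters CACGTG occur in 7.15% of all promoters and in those of 5 of the 21 (Bhlhe41, Ciart, Cry1, Per1 and Tef). A match is a description of the letters and not of binding. The PAR bZIP genes themselves had small steps in knockout fat: Dbp 0.02 ± 0.16, Tef 0.12 ± 0.10 and Hlf 0.14 ± 0.15. Without CT12 replicate 1 Tef had 0.05, and Hlf ran from 0.04 without CT6 replicate 3 to 0.25 without CT12 replicate 3. Hlf had 0.41 ± 0.15 in control fat, and the steps differed by -0.27 (95% interval -0.70 to 0.17).

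Cry1, a cryptochrome repressor that is normally late in phase, read 7.43, 7.49 and 7.35 at CT6 and 7.14, 7.60 and 7.65 at CT12 in knockout fat. The groups overlapped, with a step of 0.04 ± 0.13. In control fat it read 6.82, 6.84 and 6.94 at CT6 and 7.45, 7.08 and 7.45 at CT12, all higher at CT12, with a step of 0.46 ± 0.13. The difference of the steps was -0.42 (95% interval -0.80 to -0.04), which did not pass the test over all genes (limma adjusted p = 0.999). CT12 replicate 1 was the lowest knockout array, and without it the knockout step was 0.20 and the difference -0.26. Cry2 had a step of 0.14 ± 0.11, with no overlap, and 0.08 without CT12 replicate 2. Nfil3, a repressor at D-box sites that REV-ERB represses, read 7.57, 7.93 and 7.33 at CT6 and 7.30, 7.73 and 8.01 at CT12, a step of 0.07 ± 0.26.

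Arntl itself had a step of -0.22 ± 0.16 in knockout fat, and -0.07 without CT12 replicate 1, its lowest array. The control step was -0.39 ± 0.16, or -0.59 without control CT12 replicate 1. Clock had -0.01 ± 0.14 and Arntl2, a paralog of Arntl, -0.05 ± 0.09. Bhlhe40, a repressor at E-boxes, read 5.90, 5.92 and 5.77 at CT6 and 5.62, 5.72 and 5.71 at CT12. These groups did not overlap, and its step of -0.18 ± 0.12 stood beside -0.50 ± 0.12 in control fat (difference 0.32, 95% interval -0.04 to 0.69). Bhlhe41 and Ciart, both repressors of the same loop, had -0.27 ± 0.35 and -0.07 ± 0.23, and the first ran from -0.48 without CT12 replicate 2 to -0.11 without CT12 replicate 3. Csnk1e, a kinase of the period proteins, read 7.18, 7.19 and 7.34 at CT6 and 6.96, 6.88 and 7.13 at CT12. All CT12 arrays were lower, with a step of -0.25 ± 0.08 beside -0.03 in control fat. Csnk1d, a related kinase, had -0.12 ± 0.07. Of the turnover factors, Btrc had -0.13 ± 0.08 and Fbxw11 0.13 ± 0.10, both without overlap, and Fbxl21 and Timeless had -0.05 and -0.12. Btrc had -0.08 without CT12 replicate 2, and Timeless ran from -0.20 to -0.01 as single arrays were left out.

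**Figure D4:**
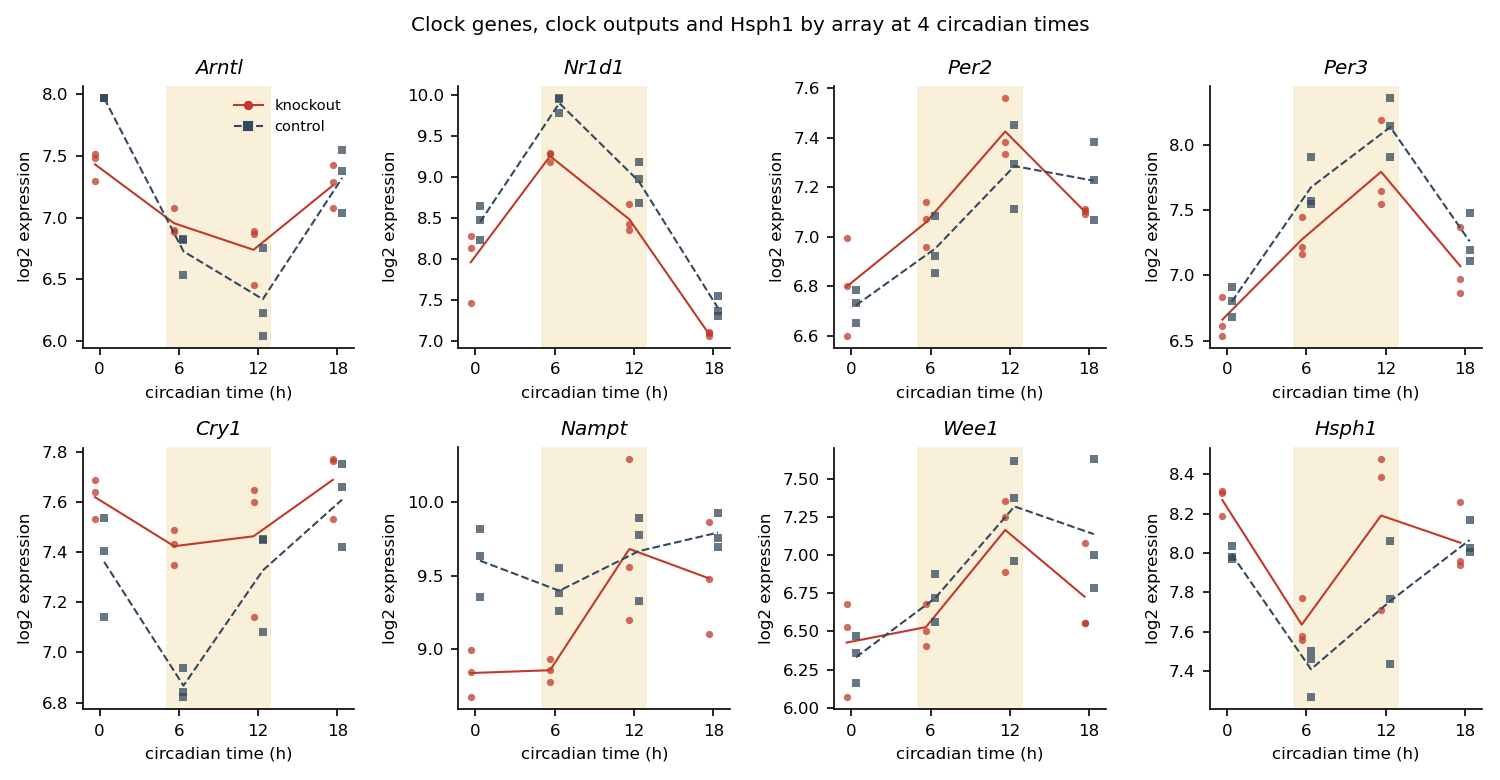
Log2 expression of 8 genes on every array at CT0, CT6, CT12 and CT18, circles for knockout and squares for control, with lines through the group means and shading over the step from CT6 to CT12. Nr1d1 in knockout fat is highest at CT6 (9.18 to 9.30), and Per2 and Per3 have their highest knockout means at CT12. The vertical axes do not start at 0.

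**Figure D5:**
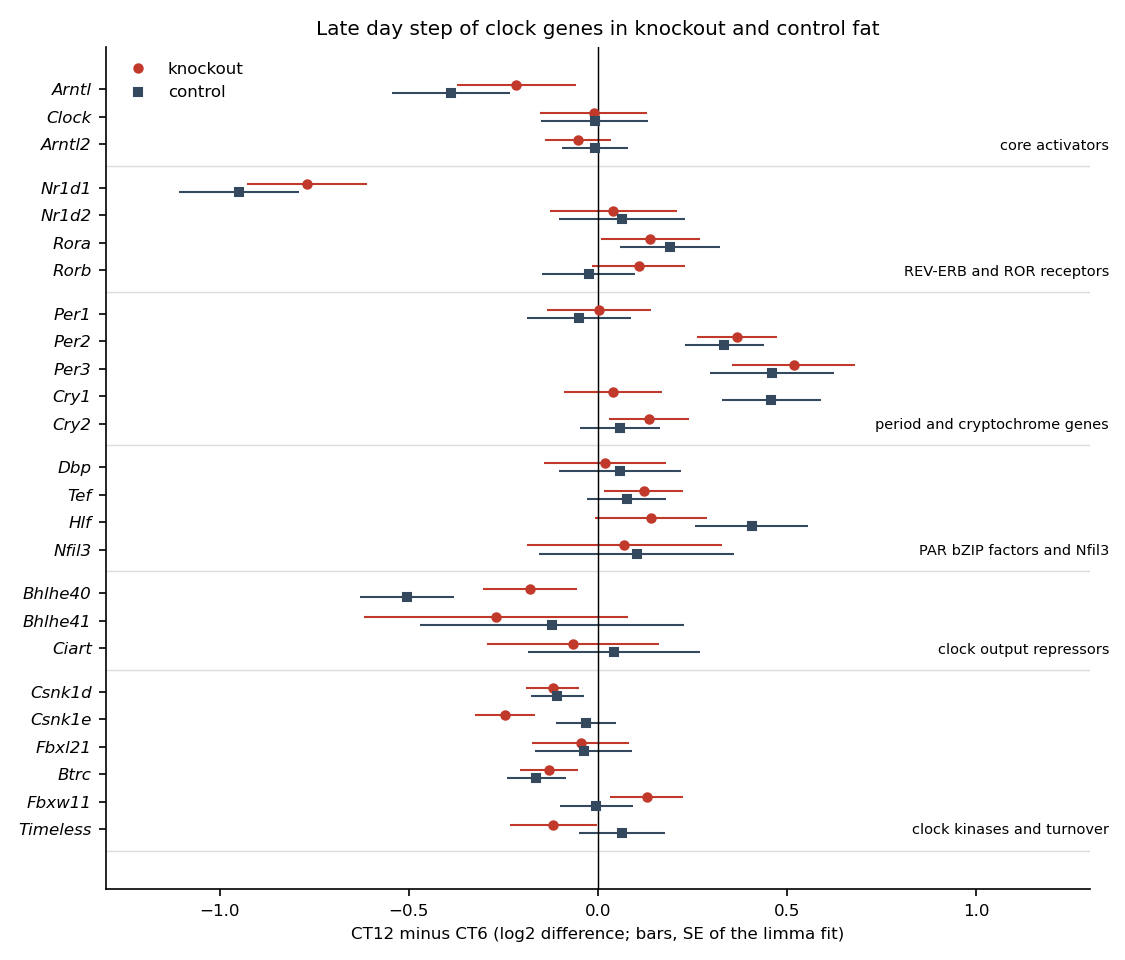
Step from CT6 to CT12 (log2 difference, bars are the SE of the limma fit) of the 25 measured clock genes in knockout and control fat, grouped by role. Nr1d1 has the lowest knockout step at -0.77 and Per3 the highest at 0.52, and the genotypes are farthest apart at Cry1, with 0.04 against 0.46.

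E-box targets outside the core loop were led by Nampt and Wee1. Nampt, the rate-limiting enzyme of NAD salvage, read 8.78, 8.94 and 8.86 at CT6 and 10.29, 9.56 and 9.20 at CT12. No overlap was seen, with a step of 0.82 ± 0.21, and 0.52 without CT12 replicate 1, the highest array. The control step was 0.27 ± 0.21, or 0.44 without control CT12 replicate 1. The steps differed by 0.55 (95% interval -0.07 to 1.17, limma adjusted p = 0.999), and by 0.25 without knockout CT12 replicate 1. Wee1, a kinase that holds back mitosis, read 6.5, 6.68 and 6.41 at CT6 and 7.35, 7.25 and 6.89 at CT12. Every CT12 array was higher, and the steps were 0.64 ± 0.20 in knockout and 0.60 ± 0.20 in control fat. Most of the 18 listed E-box targets are clock genes already described, Nr1d1, Per2 and Per3 among them. Of all 18, 14 had a step above 0 in the knockout, 5 had an unadjusted p below 0.05 and were higher and 1 was lower (2.65% and 2.39% over all genes). Their median was 0.07 (control 0.06, or 0.25 without control CT12 replicate 1). Slc6a6, a taurine transporter of the list of circadian solute and detoxification genes, had -0.33 ± 0.11 in knockout and -0.35 ± 0.11 in control fat (-0.21 without control CT12 replicate 1).

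Among genes below 0, the lowest p in knockout fat was that of Cybrd1, a ferric reductase. It read 7.93, 7.86 and 7.5 at CT6 and 7.16, 6.66 and 6.94 at CT12, with no overlap. The step was -0.84 ± 0.17 (limma adjusted p = 0.601; 0.219 to 1 over 25 alternative fits), against -0.02 ± 0.17 in control fat. The difference of the steps was -0.82 (95% interval -1.33 to -0.32, adjusted p = 0.999). The knockout CT0 and CT18 arrays lay between 6.5 and 7.03, so that CT6 was the high point there too. Cdon, a coreceptor of hedgehog signalling, read 7.53, 7.39 and 7.56 at CT6 and 6.87, 6.91 and 6.98 at CT12, a step of -0.58 ± 0.13 beside -0.07 in control fat. Tm4sf5, a membrane protein of the tetraspanin-like family, had -0.54 ± 0.11, Usp26, a deubiquitinase, -0.38 ± 0.08, and Trim6, a ubiquitin ligase, -0.32 ± 0.08. For each of them the CT12 arrays lay below the CT6 arrays in knockout fat, and the control steps lay between -0.09 and 0.04. The levels were low: the mean over all arrays was below 5 for Usp26 and below 6.5 for Tm4sf5 and Trim6.

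Among genes above 0, Apod, a lipid-binding apolipoprotein, had the lowest p. It read 7.84, 7.94 and 8.16 at CT6 and 9.47, 8.80 and 8.55 at CT12. All CT12 arrays were above all CT6 arrays, CT12 replicate 1 was the highest, and the step was 0.96 ± 0.21 (limma adjusted p = 0.601), or 0.70 without that array. Control fat had 0.47 ± 0.21. Fmo2, a flavin monooxygenase, read 9.5, 9.27 and 9.39 at CT6 and 10.55, 10.37 and 9.98 at CT12. All CT12 arrays were higher, and the step of 0.91 ± 0.22 stood beside 0.80 ± 0.22 in control fat. Riok2, a kinase of ribosome assembly, had 0.42 ± 0.11 in knockout and 0.46 ± 0.11 in control fat. Cep43, a centrosomal protein, had 0.34 ± 0.08 against 0.03 ± 0.08, and Ccn6, a matricellular protein, 0.41 ± 0.10 against -0.14 ± 0.10.

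The lowest p-values for a difference of the steps belonged to Zfp668, Ccn6, Lhx2, Prox2, Gde1 and Rif1, and all had limma adjusted p = 0.999. Zfp668, a zinc finger protein, read 6.16, 6.09 and 6.09 at CT6 and 5.93, 6.04 and 5.73 at CT12 in knockout fat, lower on every CT12 array. In control fat it read 5.86, 5.83 and 5.74 and then 6.04, 6.04 and 6.08, higher on every CT12 array. The steps of -0.22 and 0.25 differed by -0.46 (95% interval -0.69 to -0.24), and the knockout step was -0.13 without CT12 replicate 3. For Ccn6 the difference was 0.55, for Lhx2 -0.41, for Prox2 0.42 and for Gde1 and Rif1 0.54 each. Levels were low for Zfp668, Ccn6, Lhx2 and Prox2, with means over all arrays below 6.5.

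Heat shock genes, which encode chaperones and their partners, had small positive steps for the most part. Of 15 members, 0 passed over all genes, 12 had a step above 0, 6 had an unadjusted p below 0.05, all higher at CT12, and 5 did not overlap, with a median of 0.14 in knockout and 0.10 in control fat. Of these, 6 (Hspa1a, Hspa8, Hsp90aa1, Dnaja1, Hspd1 and Hspe1) have near-identical copies that their probe sets may also match and are uncertain for that reason. Among the other 9, 6 had a step above 0, 4 had an unadjusted p below 0.05, all higher, and 2 did not overlap, with a median of 0.12. Of all genes, 2.65% were higher at that p and 5.56% were higher without overlap. Hsph1, a chaperone that serves as a nucleotide exchange factor for HSP70, read 7.56, 7.58 and 7.77 at CT6 and 7.71, 8.48 and 8.39 at CT12. The groups overlapped through CT12 replicate 1, and the step was 0.55 ± 0.16 (limma adjusted p = 0.875). Without the 4 arrays lying toward the other genotype, of which CT12 replicate 1 is the one in this step, it was 0.80 and the only gene called (adjusted p = 0.0390). When CT12 replicate 1 alone was left out the adjusted p was 0.164. The control step was 0.35 ± 0.16, or 0.19 without control CT12 replicate 1. Hspa5, the chaperone of the endoplasmic reticulum, read 9.71, 9.92 and 9.84 at CT6 and 10.05, 10.12 and 10.11 at CT12, all higher, a step of 0.27 ± 0.08. Ahsa1, an activator of HSP90, had 0.27 ± 0.11 with no overlap, and Chordc1, an HSP90 cochaperone, 0.41 ± 0.18 with overlap, which was 0.20 without CT6 replicate 1. Dnajb1 had -0.01 ± 0.09, and Hspa1a, among the uncertain members, 0.15 ± 0.13, with 0.02 to 0.25 as single arrays were left out. Both of these were chosen after their values were seen.

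The promoters of Hsph1 and Chordc1 are shown because they hold the letters of a heat shock element, the binding site of heat shock factors. The element searched was 3 units in a row, GAA, TTC and GAA or their reverse complement, each 2 bases from the next, on both strands. Both come from RefSeq on GRCm38.p6, 250 bases before to 50 after the start site, Hsph1 on the minus strand of chr5:149636287-149636586 and Chordc1 on the plus strand of chr9:18292017-18292316. Capitals mark the matches, 1 for Hsph1 at position 37 and 3 overlapping ones for Chordc1.
Hsph1: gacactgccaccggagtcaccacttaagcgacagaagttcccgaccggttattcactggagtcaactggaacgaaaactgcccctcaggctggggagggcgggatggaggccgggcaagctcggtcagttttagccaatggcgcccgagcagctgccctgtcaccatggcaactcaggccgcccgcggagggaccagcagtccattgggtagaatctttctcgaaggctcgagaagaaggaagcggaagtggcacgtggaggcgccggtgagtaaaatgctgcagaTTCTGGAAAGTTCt
Chordc1: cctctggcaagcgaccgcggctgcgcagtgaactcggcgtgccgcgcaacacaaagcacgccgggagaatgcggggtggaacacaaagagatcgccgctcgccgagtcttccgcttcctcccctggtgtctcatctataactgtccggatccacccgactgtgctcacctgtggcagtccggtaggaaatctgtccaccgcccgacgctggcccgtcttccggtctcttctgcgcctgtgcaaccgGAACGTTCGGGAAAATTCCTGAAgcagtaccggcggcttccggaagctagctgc
Such an element occurs in 0.603% of the 32851 promoters and in those of 4 of the 13 heat shock genes with a listed promoter, which also include Hspd1 and Hspe1. The promoters of Hspd1 and Hspe1 overlap on opposite strands and share the same matches, so they are not separate cases. Hsph1 has 2 listed promoters that overlap and both hold this match, and 1 of them is printed.

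Glucocorticoid responsive genes also stood mostly above 0. Of 20 members, 17 had a step above 0, 5 had an unadjusted p below 0.05, all higher at CT12, and 7 did not overlap. Over all genes 2.65% were higher at that p and 5.56% were higher without overlap. The list median was 0.16 in knockout and 0.07 in control fat, but in the knockout 0.04 without CT12 replicate 1 and 0.25 without CT12 replicate 2. Fkbp5, a cochaperone of the glucocorticoid receptor, read 7.57, 7.44 and 7.82 at CT6 and 9.05, 8.83 and 8.12 at CT12. Every CT12 array was higher, and the step of 1.06 ± 0.31 was 0.87 without CT12 replicate 1, beside 0.54 ± 0.31 in control fat. Mt2, a metallothionein that binds zinc, read 10.50, 9.89 and 10.67 at CT6 and 11.21, 11.08 and 11.14 at CT12, a step of 0.79 ± 0.28 (control 0.64). Tsc22d3, a leucine zipper protein induced by glucocorticoids, had 0.35 ± 0.16 (control 0.46), and Map3k6, a kinase, 0.27 ± 0.13 (control 0.16), or 0.18 without CT12 replicate 1. Hormone levels were not measured here.

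Lipid genes gave mixed values. Of 13 triglyceride synthesis genes 9 had a step above 0, with a median of 0.17 (control 0.09). That median was 0.07 without CT6 replicate 3, 0.08 without CT6 replicate 1, 0.11 without CT12 replicate 3 and 0.26 without CT12 replicate 2. Lpin1, a phosphatidate phosphatase, read 8.55, 8.75 and 9.13 at CT6 and 9.76, 9.36 and 9.37 at CT12. All CT12 arrays were higher, and the step of 0.68 ± 0.25 stood beside 0.46 ± 0.25 in control fat. Gpam, the acyltransferase that begins glycerolipid synthesis, read 8.26, 8.24 and 7.96 at CT6 and 9.10, 8.23 and 8.64 at CT12, a step of 0.50 ± 0.19 that was 0.28 without CT12 replicate 1 (control 0.00). The median of 16 lipogenesis genes was 0.08, and it ran from -0.01 without CT12 replicate 1 to 0.22 without CT12 replicate 2. Fads2, a fatty acid desaturase, read 7.22, 7.32 and 7.06 at CT6 and 6.85, 6.71 and 6.95 at CT12, lower on every CT12 array. Its step was -0.36 ± 0.11 in knockout and -0.27 ± 0.11 in control fat. Elovl5, an elongase, had -0.27 ± 0.12 and -0.24 ± 0.12. Of 14 fasting induced PPAR targets, 8 had a step below 0 (median -0.05), and Ucp3, a mitochondrial carrier, had -0.50 ± 0.20 beside -0.52 ± 0.20, and -0.24 without CT12 replicate 1. The step of Cyp4a14, a fatty acid hydroxylase, rested on the array with liver transcripts: it was -1.21, and -0.08 without CT6 replicate 2.

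Some lists had medians near 0. The median knockout step was 0.02 for 29 respiratory chain genes, 0.03 for 18 fatty acid oxidation genes, 0.03 for 20 cholesterol synthesis genes and -0.02 for 17 thermogenic genes, and 0 members of each passed over all genes. Lep, leptin, had 0.39 ± 0.29 in knockout with overlapping groups, beside 0.81 ± 0.29 in control fat (difference -0.42, 95% interval -1.28 to 0.44), and its knockout step ran from 0.25 without CT6 replicate 2 to 0.63 without CT6 replicate 3. The 21 interferon induced genes had a median of -0.11, which was 0.01 without CT6 replicate 2 and -0.19 without CT6 replicate 3. Cirbp, an RNA-binding protein induced by cold, had -0.36 ± 0.15 in knockout and -0.31 ± 0.15 in control fat. Sesn2, a stress-induced regulator of amino acid sensing, read 7.14, 7.22 and 7.49 at CT6 and 6.74, 6.72 and 6.84 at CT12, a step of -0.52 ± 0.15 with no overlap (control -0.32).

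Across genes the knockout and control steps had a Pearson correlation of 0.249, and 0.146 without the 4 arrays lying toward the other genotype (those numbered 1 at CT12 and 3 at CT18). The steps share no array, and genes are not independent replicates. At an unadjusted p below 0.05 in both genotypes, 132 of the 19938 genes had the same sign and 10 the opposite sign. At that level there were 1006 genes (5.05%) in knockout and 948 (4.75%) in control fat. What the shared signs rest on was not tested.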

How the data were processed

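The data are 24 Affymetrix mouse gene arrays, 3 for each of 8 groups (knockout or control at CT0, CT6, CT12 or CT18). Trizol was used to extract RNA, of which 50 ng was amplified and biotin-labelled, per the labels' protocols. The authors deposited log2 expression values which the submitters' processing notes say were made with RMA. The sources used here give neither its version nor the build behind the probe sets. Values were used as deposited, with no filter on dim genes. Arrays have no sequencing depth, so precision is limited by their number.

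Of 35556 probe sets, 21789 had 1 gene symbol in the platform annotation, 1621 had more than 1, and 12146 are unnamed here. A RefSeq table (GRCm38.p6) held the Entrez number of 21698 and changed 0 symbols. The brightest probe set represented each of 999 genes with several, which left 19938 genes. One linear model of 8 groups was fitted over all 24 arrays with lmFit and eBayes of limma 3.58.1 under R 4.3.3, with 16 residual and 5.03 prior degrees of freedom. Contrasts were CT12 minus CT6 in each genotype and their difference, with Benjamini-Hochberg adjustment and a threshold of 0.05. Other steps used Python 3.11.15. The fit was tested on simulated data with known changes. For the knockout step it recovered 62.7% of changes of 0.5 log2 units and 98.5% of changes of 1. For the difference of the steps these shares were 32.8% and 91%. The simulation changed 67 genes by 0.5, 67 by 1 and 66 by 2 log2 units at once. Many changed genes ease the adjusted threshold, so these shares do not carry over to data with few changes. The simulated noise was normal and independent, with no array standing apart, unlike the arrays here.

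The arrays compared, the gene lists and the rule for naming genes were chosen with earlier results of these data known. Named genes are the measured clock genes, the 6 with the lowest p in each direction, up to 4 with the lowest p of a list described and the 6 with the lowest p for the difference. Predicted genes were not named (1 above 0 and 3 for the difference). Alternatives covered normalization, centring, dim genes, probe sets, arrays fitted, array weights, a replicate block and each array left out. Leaving out arrays for control steps and for differences, and heat shock members with near-identical copies, were added after seeing the data.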

Additional observations from a re-analysis of the deposited data

How the results depend on the processing

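The count of 0 genes past the threshold for the knockout step was 0 under quantile normalization, centring, a filter on mean level at 5 or 6.5, the mean of probe sets, the 12 knockout arrays alone, the trend and robust settings of eBayes, array weights (smallest limma adjusted p = 0.121), and all 35556 probe sets, the last chosen after seeing the data. It was 3 with the 6 arrays of the step, 2 with the 12 arrays at CT6 and CT12, and 1 without the 4 arrays lying toward the other genotype. For the control step the count was 1 with quantile normalization (Nr1d1), 1 with the 12 arrays and 4 with array weights (Nr1d1, Kit, Cys1 and Arhgap24, the last pair outside the naming rule). The difference of the steps gave 0 in every fit run. Leaving out each of the 12 arrays at these times in turn gave 0 to 0 for each of the 3 counts, as did leaving out knockout CT6 replicate 2 and CT12 replicate 1 together, an alternative chosen after seeing the data. With the replicate number as a block the knockout count was 0, with 984 genes at an unadjusted p below 0.05. Same-numbered knockout arrays had correlations of deviations of 0.166, -0.058 and 0.092, and differently numbered ones ran from -0.182 to 0.110. With 3 arrays a group these values cannot settle whether the numbers pair the arrays. The knockout count was 0 with and without the block, so there was no call to change. No named gene passed the threshold, so the direction of a step was not settled by a test. Of the values of 235 genes under the alternatives, 5783 stayed below the threshold and within 1 SD between replicates of the reported step, 6 moved farther and 6 newly passed. These counts do not measure stability, because leaving out 1 of 3 arrays cannot move a step by 1 SD so defined. Fits that left out a control array or changed only the estimate of the spread kept the knockout step itself. The sign turned for 52 of the 235 genes under at least 1 alternative, and for 13 of the 95 with a step over 0.3 in size. Those 13 were 9 liver genes without knockout CT6 replicate 2, Gpnmb and Cd84 without CT12 replicate 2, and Mest and Acsm3 without CT12 replicate 1. Median steps turned sign for 29 of 47 lists and for 5 of the 17 over 0.1 in size. Of the medians 1171 stayed within 1 SD and 29 moved, and here too the fits without a control array kept the knockout median. The 3 arrays of a group limit the precision of every step.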

Other observations

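Kit, a receptor of mast cells and progenitors, read 6.84, 6.91 and 6.91 at CT6 and 6.71, 6.58 and 6.58 at CT12 in knockout fat, a step of -0.26 ± 0.10 with no overlap. In control fat it read 7.19, 7.34 and 7.21 and then 6.82, 6.72 and 6.54, a step of -0.55 ± 0.10, and the steps differed by 0.29 (95% interval 0.00 to 0.58, limma adjusted p = 0.999). The mast cell list did not follow Kit: of its 9 markers, 4 had a knockout step above 0 and 5 below, with a median of -0.02. Its highest step was 0.31. At an unadjusted p below 0.05, 1 member was higher at CT12 and 1 was lower, beside 2.65% and 2.39% of all genes. Fgf21, a hormone of the fasting response, read 5.72, 5.45 and 5.44 at CT6 and 5.26, 5.23 and 5.4 at CT12 in knockout fat, a step of -0.24 ± 0.10 (-0.15 without CT6 replicate 1), while the control step was 0.20 ± 0.10 (difference -0.45, 95% interval -0.75 to -0.14, limma adjusted p = 0.999). The level of Fgf21 was low, with a mean over all arrays below 6.5. Lymphocyte markers had medians near 0 in the knockout: the median step was 0.03 for 9 T cell markers and -0.04 for 9 B cell markers, beside -0.17 and -0.42 in control fat, where 2 CT6 arrays had the highest list means among the arrays at these times (6.77 and 6.60 for T cells). At the other times the T cell mean reached 7.19 (control CT18 replicate 2) and 6.93 (control CT0 replicate 3). The control T cell median was -0.08 without CT6 replicate 2, and the knockout B cell median ran from -0.13 to 0.09 as single arrays were left out. Fmo1, a flavin monooxygenase, read 9.79, 9.92 and 10.07 at CT6 and 10.90, 10.23 and 10.17 at CT12 in knockout fat, a step of 0.51 ± 0.20 that was 0.28 without CT12 replicate 1.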
